A study of Mus musculus with 4 samples.

Results

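The effector genes of mast cells, basophils and eosinophils were followed through sorted mouse bone marrow progenitors: Cpa3, Hdc, Ms4a2, Fcer1a, Mcpt8, Prss34 and Cma1 for mast cells and basophils, and Prg2, Prg3 and Epx for eosinophils. These 10 genes, of 55357 in the count tables, were matched by symbol. They were chosen by their CPM (UMIs scaled to library size), their shares of positive cells and their co-detection with Gata2 and Cebpe in these libraries, across marker-gated lineages and between Yoda1 and control. Their difference between the groups is therefore described without a test. The cells were LSK cells (lineage-negative, Sca-1-positive, Kit-positive), the bone marrow fraction that holds haematopoietic stem cells and early progenitors. All mice were wild type, and the labels give no age, sex or strain. The Yoda1 group was given Yoda1, a chemical activator of the mechanically gated cation channel Piezo1, intraperitoneally for 2 weeks, and the control group was given vehicle. Each group had 2 single-cell RNA-seq libraries, Yoda1 1 and Yoda1 2 against control 1 and control 2. The labels do not say whether the libraries came from separate mice, so the spread between them may be technical.

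Mast cells, basophils and eosinophils store ready-made effectors in cytoplasmic granules and release them on stimulation. Mast cells and basophils carry the high-affinity IgE receptor and secrete histamine and proteases, while eosinophils secrete cationic proteins and a peroxidase. The transcription factor GATA2 is needed for mast cells and basophils to form in mice, and C/EBPε, the product of Cebpe, is needed for neutrophils and eosinophils to mature. Transcripts of granule proteins appear in progenitors before the granules fill.

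After filtering, the libraries held 9122 and 9756 cells in Yoda1 1 and Yoda1 2, against 7620 and 7822 in control 1 and control 2, with 89058521 to 110493533 unique molecular identifiers (UMIs, counted transcripts) per library. The median cell had 10183.5 and 7311 UMIs in the Yoda1 libraries, against 11220 and 9410.5 in the controls. Any library pair shared at most 26 cell barcodes, under 0.3% of its cells. Kit and Ly6a, which encode Kit and Sca-1, were present in all libraries at 97.9 to 262 CPM. Of the lineages that the sort should remove, the 3 mature mast cell markers summed to at most 1.10 CPM in any library, with 1 or 2 of the 3 at 0. The 7 mature neutrophil markers summed to 58.0 and 68.9 CPM in Yoda1 1 and 2, against 213 and 111 CPM in control 1 and 2. The 4 haemoglobin genes summed to 25.4 and 124 CPM in the Yoda1 libraries and 63.1 and 109 CPM in the controls. The 5 B cell markers summed to 41.2 and 112 CPM in the Yoda1 libraries and to 50.9 and 118 CPM in the controls, and the 5 T and NK cell markers to 312 and 257 CPM in the Yoda1 libraries and to 413 and 447 CPM in the controls, of which 1 gene gave 251 to 439 CPM. Yoda1 2 stood apart from the other libraries. Its 4 stem cell markers (Hlf, Mecom, Procr and Mllt3) summed to 401 CPM, against 119 CPM in Yoda1 1 and 100.003 and 127 CPM in the controls. Its 4 neutrophil-lineage markers (Elane, Ctsg, Prtn3 and Gfi1) summed to 1692 CPM, against 5326 CPM in Yoda1 1 and 6191 and 6549 CPM in the controls. The part of this shift in the results on the effector genes was not tested beyond the values given without Yoda1 2 beside them.

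The proximal promoters of the IgE receptor genes, of 1 basophil protease and of 1 eosinophil granule protein are shown because these genes are co-detected with Gata2 or Cebpe below. Each is the 250 bases before the start of the RefSeq gene (assembly GRCm38.p6), read 5′ to 3′ on the gene's strand. Capitals mark matches on either strand to GATAA, the core of a GATA site (TTATC when read from the other strand), and to TTGCNNAA, a C/EBP-type site. No matches overlapped.
Ms4a2, chr19:11623720-11623969, minus strand: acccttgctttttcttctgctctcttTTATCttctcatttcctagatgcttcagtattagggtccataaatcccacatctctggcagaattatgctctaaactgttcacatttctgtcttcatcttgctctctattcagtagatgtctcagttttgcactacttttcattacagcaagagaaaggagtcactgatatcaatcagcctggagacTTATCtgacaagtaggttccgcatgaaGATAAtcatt
Fcer1a, chr1:173227230-173227479, minus strand: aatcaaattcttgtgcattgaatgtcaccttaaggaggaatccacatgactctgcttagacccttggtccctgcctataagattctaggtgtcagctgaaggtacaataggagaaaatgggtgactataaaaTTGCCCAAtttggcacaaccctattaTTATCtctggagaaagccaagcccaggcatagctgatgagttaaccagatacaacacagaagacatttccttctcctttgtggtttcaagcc
Prss34, chr17:25298144-25298393, plus strand: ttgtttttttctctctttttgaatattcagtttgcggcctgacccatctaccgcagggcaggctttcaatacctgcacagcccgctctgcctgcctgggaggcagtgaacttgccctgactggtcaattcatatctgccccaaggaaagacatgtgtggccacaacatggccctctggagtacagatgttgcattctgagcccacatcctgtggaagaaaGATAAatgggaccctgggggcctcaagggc
Prg3, chr2:84987965-84988214, plus strand: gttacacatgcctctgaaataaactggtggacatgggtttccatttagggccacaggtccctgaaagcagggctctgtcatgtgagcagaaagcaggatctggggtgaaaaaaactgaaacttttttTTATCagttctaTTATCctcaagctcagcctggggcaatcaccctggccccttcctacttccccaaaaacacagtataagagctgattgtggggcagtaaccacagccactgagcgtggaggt
The Ms4a2 window holds 3 GATAA matches, which begin 224, 37 and 10 bases before the gene's start. The Prg3 window holds 2, at 123 and 111 bases, and the Prss34 window 1, at 30 bases. In the Fcer1a window a GATAA match at 92 bases lies near a TTGCNNAA match at 118 bases, the single C/EBP-type match among the 9 effector genes with a promoter entry. GATAA occurs in 6 of those 9 windows, also in those of Cpa3 and Cma1. The windows of Hdc, Mcpt8 and Epx, not printed here, hold neither match, so every printed window is among those with GATAA. Over 32851 windows of the same length in the whole table, 22.6% held GATAA at least once, 4.28% held at least 2 matches, 0.712% held at least 3, and 9.56% held TTGCNNAA. A match is a run of letters and does not show that a factor is bound there.

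The effector genes are spread over 7 chromosomes with 2 neighbourhoods among them (GRCm38, GENCODE M21 genes). Prg2 (chr2:84980461-84983632) and Prg3 (chr2:84988215-84993886) lie 4582 bases apart on the plus strand. Mcpt8 (chr14:56082166-56085273) and Cma1 (chr14:55941451-55944675) lie 137490 bases apart on the minus strand, in the mast cell protease cluster. The others are Cpa3 (chr3:20215620-20242181), Hdc (chr2:126593667-126619299), Ms4a2 (chr19:11615523-11623719), Fcer1a (chr1:173221284-173227214), Prss34 (chr17:25298394-25300165) and Epx (chr11:87864000-87875536). Each count covers a whole gene, so exons, introns and UTRs cannot be told apart. Of 50-base stretches in their transcripts, 5.38% of those of Cma1 also occur in Gm48934 and 2.10% of those of Ms4a2 in Ms4a4b, so reads from those stretches could belong to either gene. For Hdc the share was 0.141%, and for the other 7 genes it was 0.

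Over all cells of a library, the effector genes as a group were lower with Yoda1, but the genes differed in how far and in whether both Yoda1 libraries shared the shift. In summed CPM, 6 of 10 (Cpa3, Hdc, Ms4a2, Prg2, Prg3 and Epx) had both Yoda1 libraries below both controls, against 9.95% of all 18182 genes tested. The other 4 (Fcer1a, Mcpt8, Prss34 and Cma1) overlapped between the groups. All 10 passed the filter on low counts, and all 10 fitted log2 fold changes (Yoda1 over control) were below 0, with a median of -1.15 against 0.01 for all genes tested. The same contrast chose the genes, so these counts are a description. In the fit across all genes (edgeR, quasi-likelihood test), 0 of 18182 genes passed an adjusted p of 0.05, a share of 0%, and 309 had an unadjusted p under 0.05. limma-voom called 0 and DESeq2 called 5, all lower with Yoda1 and none of them an effector gene. With a library left out, edgeR called 938 genes without Yoda1 1, 209 without Yoda1 2, 0 without control 1 and 3 without control 2.

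**Figure D1:**
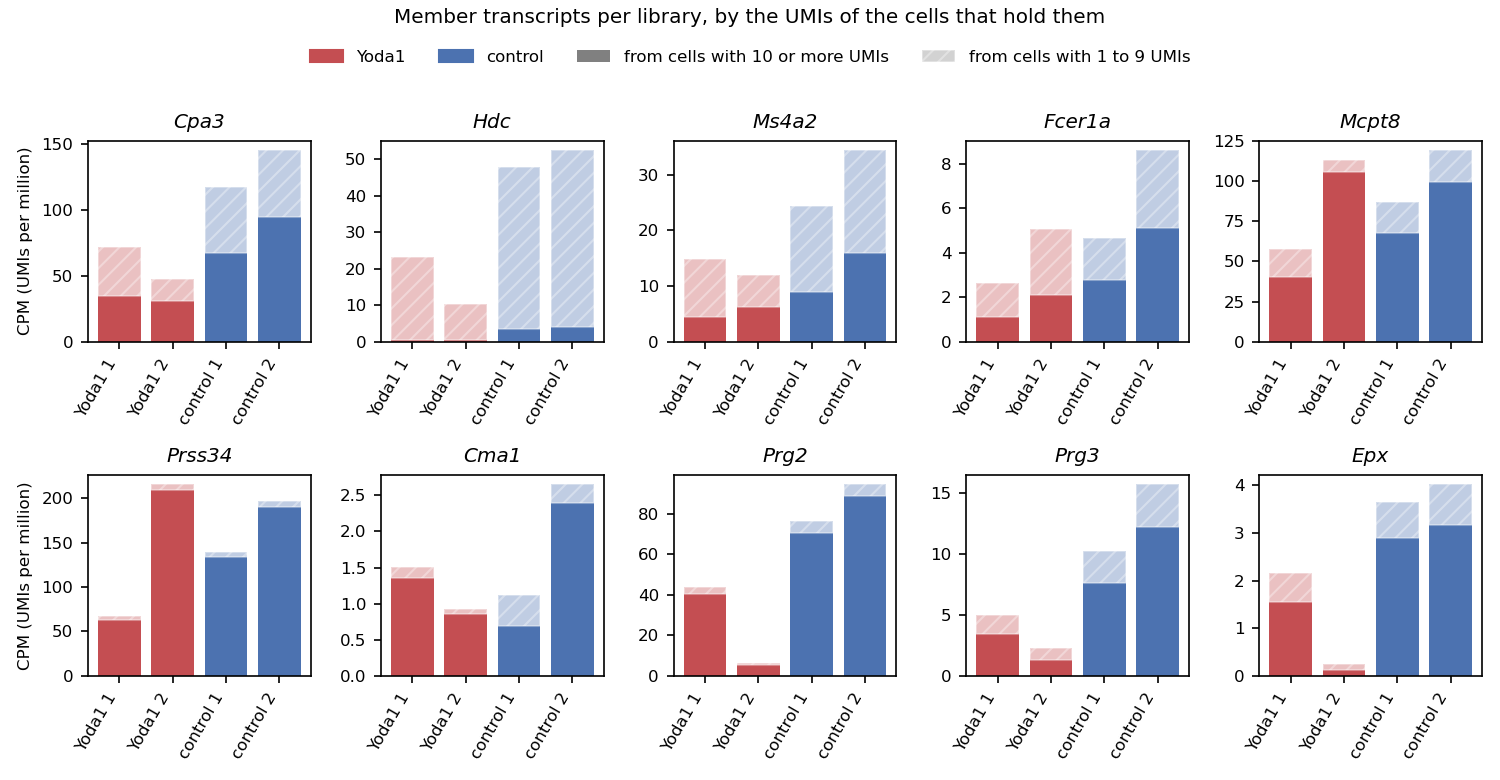
Level of each effector gene in each library, in CPM of the whole library, with a solid bar for the UMIs found in cells with 10 or more UMIs of that gene and a hatched bar for those in cells with 1 to 9. Hdc comes almost wholly from cells with few UMIs and is lower in both Yoda1 libraries, whereas Prss34 comes almost wholly from cells with many and is highest in Yoda1 2, at 215 CPM.

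Hdc encodes histidine decarboxylase, the enzyme that makes histamine. It had 23.1 and 10.4 CPM in Yoda1 1 and Yoda1 2, against 48.0 and 52.5 CPM in control 1 and control 2. Both Yoda1 libraries lay below both controls, a log2 fold change of -1.58 ± 0.41 (SE). Hdc was spread thinly over many cells: 13.4% (exact 95% interval 12.7 to 14.1) and 4.08% (3.70 to 4.49) of cells were positive, with at least 1 UMI, in Yoda1 1 and Yoda1 2, against 24.3% (23.3 to 25.3) and 21.7% (20.8 to 22.6) in the controls. These intervals, like all those below, cover counting error alone. Positive cells averaged 2.08 and 2.36 UMIs in the Yoda1 libraries and 2.67 and 2.753 UMIs in the controls. These values do not tell fewer cells with Hdc from less Hdc per cell, since a cell with less Hdc is more often counted as negative. Cells with 10 or more Hdc UMIs numbered 5 and 3 in the Yoda1 libraries and 29 and 31 in the controls.

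Cpa3, which encodes the carboxypeptidase of mast cell granules, had 71.9 and 47.9 CPM in Yoda1 1 and Yoda1 2, against 117.5 and 145.4 CPM in control 1 and control 2. The groups did not overlap, and the log2 fold change was -1.15 ± 0.28. Cells with 10 or more UMIs held 48.8% and 65.2% of its UMIs in the Yoda1 libraries and 57.0% and 65.0% in the controls. Cells with 1 to 9 UMIs supplied 36.8 and 16.7 CPM in the Yoda1 libraries and 50.5 and 50.9 CPM in the controls, and cells with 10 or more supplied 35.04 and 31.2 CPM in the Yoda1 libraries and 67.0 and 94.5 CPM in the controls. Both parts were lower in both Yoda1 libraries.

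The IgE receptor needs Fcer1a, the α chain that binds IgE, and Ms4a2, the β chain that amplifies its signal. Ms4a2 had 15.0 and 11.9 CPM in Yoda1 1 and Yoda1 2, against 24.5 and 34.4 CPM in the controls, a log2 fold change of -1.15 ± 0.25. Fcer1a was sparser, at 2.62 and 5.05 CPM in Yoda1 1 and Yoda1 2 against 4.64 and 8.60 CPM in control 1 and control 2. For Ms4a2 the groups stood apart, whereas for Fcer1a Yoda1 2 lay above control 1, and its log2 fold change was -0.85 ± 0.38. Among Fcer1a-positive cells at full depth, 56.5% and 76.7% also held Ms4a2 in the Yoda1 libraries, against 76.1% and 75.2% in the controls. Among cells without an Fcer1a UMI, Ms4a2 was found in 4.51% and 1.39% in the Yoda1 libraries and 7.14% and 6.66% in the controls. Every cell with 10 or more Fcer1a UMIs (9 and 12 in the Yoda1 libraries, 18 and 25 in the controls) held Ms4a2, Cpa3, Mcpt8 and Prss34 too.

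Mcpt8 and Prss34 encode granule serine proteases typical of mouse basophils. Prss34 had 66.9 and 215 CPM in Yoda1 1 and Yoda1 2, against 139.9 and 196 CPM in control 1 and control 2. Mcpt8 had 57.9 and 113 CPM in the Yoda1 libraries and 86.8 and 119 CPM in the controls. For both genes Yoda1 1 was the lowest library and Yoda1 2 lay within or above the controls, so the groups overlapped. The fitted log2 fold changes were -0.35 ± 0.44 for Prss34 and -0.34 ± 0.28 for Mcpt8. That of Prss34 was 0.20 without Yoda1 1 and -1.25 without Yoda1 2, and that of Mcpt8 was -0.02 without Yoda1 1 and -0.75 without Yoda1 2.

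Cma1, a chymase of connective tissue mast cells, was the sparsest effector of the mast cell group, with 1.51 and 0.927 CPM in Yoda1 1 and Yoda1 2 against 1.13 and 2.65 CPM in control 1 and control 2. The groups overlapped. Its log2 fold change of -0.62 ± 0.51 was 0.04 without control 2, where 1 cell held 104 of the library's 236 Cma1 UMIs.

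The 3 eosinophil genes had the largest fitted differences of the 10 with all 4 libraries in the fit. Prg2, which encodes the granule's major basic protein, had 43.9 and 6.47 CPM in Yoda1 1 and Yoda1 2, against 76.4 and 94.6 CPM in control 1 and control 2. Prg3, which encodes a homologue of that protein, had 4.996 and 2.26 CPM in the Yoda1 libraries and 10.3 and 15.7 CPM in the controls. Epx, the eosinophil peroxidase, had 2.16 and 0.243 CPM in the Yoda1 libraries and 3.64 and 4.02 CPM in the controls. For all 3 the Yoda1 libraries lay below the controls, and Yoda1 2 was the lowest. Their log2 fold changes were -1.72 ± 0.78, -1.83 ± 0.45 and -1.62 ± 0.87 for Prg2, Prg3 and Epx, and -0.89, -1.30 and -0.75 without Yoda1 2. Without that library Fcer1a and Prss34, at -1.25 each, and Hdc, at -1.05, lay further below 0 than Prg2 and Epx.

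**Figure D2:**
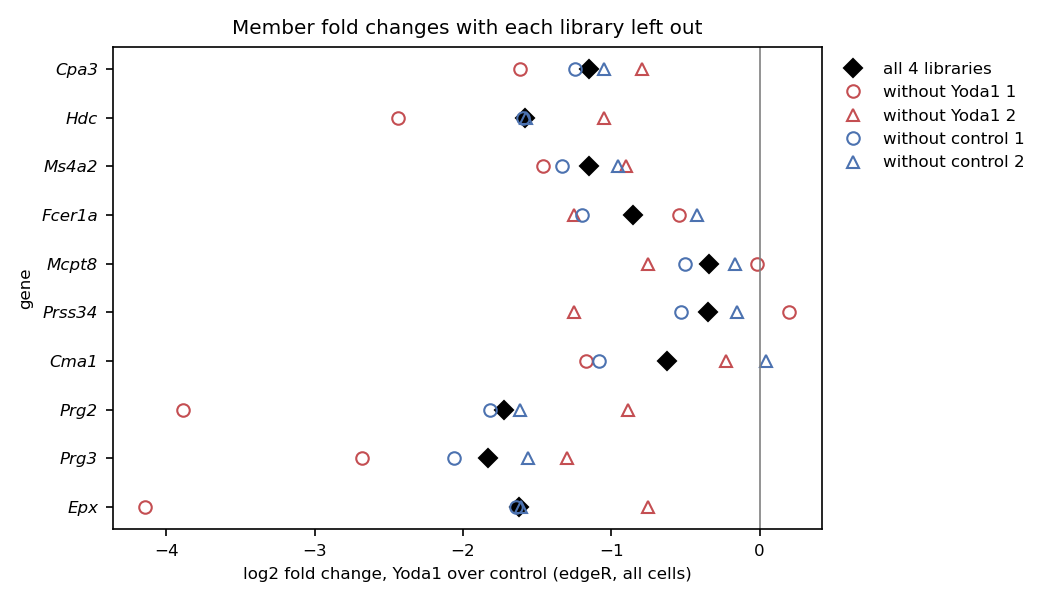
Fitted log2 fold change of each effector gene over all cells (Yoda1 over control, edgeR), with all 4 libraries (filled diamond) and with each library left out in turn (open symbols). Without Yoda1 1 the values of Prg2 and Epx are -3.89 and -4.14 and that of Prss34 is above 0; Cma1 is above 0 without control 2, while the other 8 genes stay below 0 whichever library is left out.

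Without Yoda1 2, the library richest in stem cell markers, the log2 fold changes of the mast cell and receptor genes were -0.80 for Cpa3, -1.05 for Hdc, -0.90 for Ms4a2, -1.25 for Fcer1a and -0.23 for Cma1. Without Yoda1 1 they were -1.62 for Cpa3, -2.44 for Hdc, -1.46 for Ms4a2, -0.54 for Fcer1a and -1.17 for Cma1. Hdc, Cpa3, Ms4a2, Cma1, Prg2, Prg3 and Epx were thus further below 0 on Yoda1 2 alone, and Fcer1a, Mcpt8 and Prss34 on Yoda1 1 alone.

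Shares of positive cells depend on depth, so each cell was also thinned to 3000 UMIs. After thinning, all 10 effector genes had a lower share of positive cells in both Yoda1 libraries than in both controls, against 11.8% of all genes tested. Cpa3 was found in 11.6% and 5.02% of thinned cells in Yoda1 1 and Yoda1 2, against 16.9% and 16.3% in control 1 and control 2 (before thinning, 21.5% and 9.44% in the Yoda1 libraries and 30.7% and 27.0% in the controls). Hdc was found in 5.01% and 1.78% of thinned cells in the Yoda1 libraries and 10.1% and 9.29% in the controls. Prss34 was found in 1.59% and 2.44% of thinned cells in the Yoda1 libraries and 2.87% and 2.72% in the controls, although Yoda1 2 had the highest Prss34 level. The share of Prss34-positive cells and its level therefore ordered the libraries differently.

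To set these shares against free RNA, cells were gated on 7 lists of lineage markers that contain none of the effector genes, and the lymphoid gate (Dntt, Il7r, Rag1 and Ebf1) served as cells that should lack them. In thinned cells, Hdc was found in 9.03% and 5.87% of the neutrophil gate in Yoda1 1 and Yoda1 2, against 15.2% and 15.3% in the controls. In the lymphoid gate it was found in 2.47% and 0.943% in the Yoda1 libraries, and in 0 of 38 cells, which allows a share of up to 7.89%, and 2.16% in the controls. The limit for a count of 0, here and below, is 3 divided by the number of cells. Median depths of the gates as assigned before thinning were 7872.5 to 9592.5 UMIs in the neutrophil gate and 7516.5 to 9116 UMIs in the lymphoid gate. Gates were reassigned in thinned cells, where the lymphoid gate of Yoda1 1 held 81 cells in place of 44. It may thus hold cells that had another gate at full depth. The Hdc share of the neutrophil gate was above that of the lymphoid gate in every library. The Prss34 share in the neutrophil gate was 1.81% and 3.79% in the Yoda1 libraries and 3.40% and 3.63% in the controls, against 2.47% and 1.26% in the lymphoid gate of the Yoda1 libraries and 2.63% and 0.866% in that of the controls. For Yoda1 1 the neutrophil gate's share was not above that of the lymphoid gate, which rests on 2 of 81 cells (interval 0.300 to 8.64). Of the 429 Prss34-positive cells of Yoda1 1 at full depth, 360 held a single UMI. The co-detection shares and the classes of cells with at least 2 effector genes below count such single UMIs as positive.

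Most Hdc and Prg2 transcripts lay in the neutrophil gate, which held 3910 and 2226 cells in Yoda1 1 and Yoda1 2 and 3816 and 3659 cells in the controls. That gate held 71.96% and 62.6% of all Hdc UMIs in the Yoda1 libraries and 75.6% and 79.3% in the controls, and 84.0% and 85.8% of all Prg2 UMIs in the Yoda1 libraries and 75.0% and 69.5% in the controls. Cebpe followed the same gate, with 83.9% and 77.4% of its UMIs there in the Yoda1 libraries and 82.8% and 90.2% in the controls. Gata2 did not: 34.8% and 19.3% of its UMIs lay in that gate in the Yoda1 libraries and 39.1% and 39.8% in the controls, and its level was highest in the megakaryocytic gate, at 174 and 177 CPM in the Yoda1 libraries and 205 and 219 CPM in the controls. The gate of Cma1 differed between libraries: the neutrophil gate held 74.9% and 3.57% of its UMIs in Yoda1 1 and Yoda1 2 and 44.8% and 2.54% in the controls, and cells that passed no gate held 1.80% and 95.2% in the Yoda1 libraries and 45.7% and 40.3% in the controls.

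**Figure D3:**
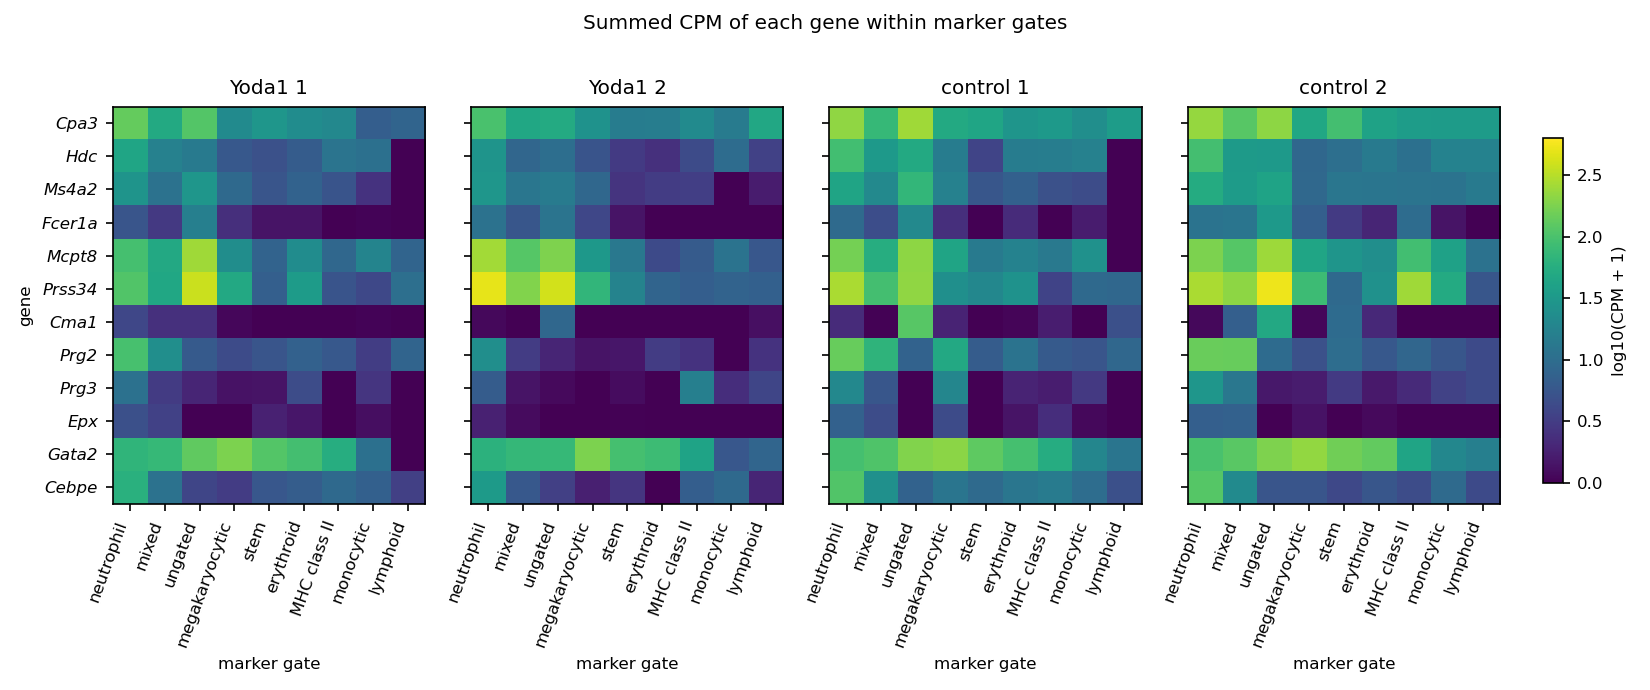
Summed level of each effector gene, Gata2 and Cebpe within each marker gate of each library, as log10(CPM + 1), with Yoda1 libraries left of controls. In every library Hdc, Prg2 and Cebpe are brightest in the neutrophil gate and Gata2 in the megakaryocytic gate, while Mcpt8 and Prss34 are brightest in the neutrophil gate in some libraries and in cells that pass no gate in others.

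Within the neutrophil gate alone, Hdc had 43.6 and 27.2 CPM in Yoda1 1 and Yoda1 2, against 88.4 and 90.9 CPM in control 1 and control 2. Cpa3 had 138 and 98.9 CPM there in the Yoda1 libraries and 218 and 227 CPM in the controls, and Prg2 had 96.7 and 23.2 CPM in the Yoda1 libraries and 139.7 and 144 CPM in the controls. These 3 genes were thus lower in both Yoda1 libraries also among cells of 1 gate, whose share of cells was 42.9% and 22.8% in the Yoda1 libraries and 50.1% and 46.8% in the controls. Prss34 was not, with 107 and 494 CPM in the Yoda1 libraries and 274 and 275 CPM in the controls. The other effector genes are not given for this gate. The share of all genes with both Yoda1 libraries below both controls was not counted within it, so how common this order is there is not known. Cebpe had 59.6 and 32.5 CPM in that gate in the Yoda1 libraries and 108 and 115 CPM in the controls. Where cells of a gate differ in maturity, a lower sum can come from fewer cells of a type or less RNA per cell, and a gate does not tell these apart.

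Most UMIs of the basophil proteases and of Prg2 came from a few cells. Cells with 10 or more UMIs held 94.2% and 97.2% of the Prss34 UMIs in Yoda1 1 and Yoda1 2 and 95.4% and 96.8% in the controls. For Prg2 they held 92.4% and 85.2% in the Yoda1 libraries and 92.6% and 94.0% in the controls, and the richest cell of each library held 1080 and 280 Prg2 UMIs in the Yoda1 libraries and 1187 and 889 in the controls. For Hdc the same share was 2.20% and 3.62% in the Yoda1 libraries and 7.104% and 7.92% in the controls. The effector genes thus ranged from one found at low level in many cells to ones found at high level in few.

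Cells with 10 or more UMIs of both Mcpt8 and Prss34 numbered 41 and 65 in Yoda1 1 and Yoda1 2, against 50 and 79 in control 1 and control 2. This threshold was set after the data had been seen. As shares these were 0.449% (exact 95% interval 0.323 to 0.609) and 0.666% (0.515 to 0.848) of cells in the Yoda1 libraries and 0.656% (0.487 to 0.864) and 1.01% (0.800 to 1.26) in the controls. Yoda1 2 lay above control 1, so the groups overlapped. Of the 235 cells, 232 held Gata2, 235 Cpa3, 231 Ms4a2, 218 Hdc and 183 Fcer1a, whereas 22 held Cebpe and 0 held Cma1, which allows up to 1.28%. Prss34 reached 15877 and 25870 CPM within these cells in the Yoda1 libraries and 16321 and 17948 CPM in the controls. Of the 235 cells, 154 fell in the neutrophil gate and 25 passed no gate.

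Cells with 10 or more UMIs of Prg2 numbered 13 and 6 in Yoda1 1 and Yoda1 2, against 29 and 29 in control 1 and control 2. They made up 0.143% (0.0759 to 0.244) and 0.0615% (0.0226 to 0.134) of cells in the Yoda1 libraries and 0.381% (0.255 to 0.546) and 0.371% (0.248 to 0.532) in the controls. Both Yoda1 shares lay below both controls. Of the 77 cells, 74 held Cebpe, 75 Prg3, 62 Epx, 69 Hdc and 70 Cpa3, while 52 held Gata2, 27 held Il5ra, the α chain of the interleukin-5 receptor, and 3 held Fcer1a. Their Prg2 level was 17652 and 6468 CPM in the Yoda1 libraries and 15867 and 18302 CPM in the controls, so that of Yoda1 1 lay among the controls and that of Yoda1 2, from 6 cells, below them. In Yoda1 1 a single cell that was also rich in both basophil proteases held 22.2% of all Prg2 UMIs. Whether that cell was a doublet was not tested.

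**Figure D4:**
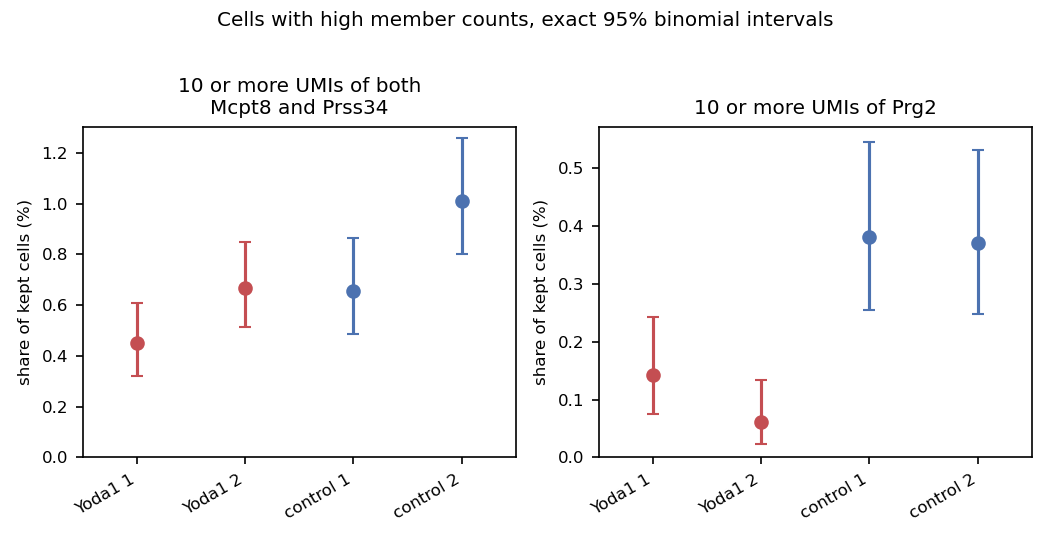
Share of kept cells with 10 or more UMIs of both Mcpt8 and Prss34 (left) and of Prg2 (right) in each library, with exact 95% binomial intervals that cover counting error only. The basophil protease shares of the 2 groups overlap, between 0.449% and 1.01%, while both Prg2 shares are lower in the Yoda1 libraries.

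Cells with 10 or more UMIs of Cma1 numbered 5 and 3 in Yoda1 1 and Yoda1 2 and 2 and 4 in control 1 and control 2. All 14 held Cpa3, 13 held Gata2 and 13 held Kit, and 0 held Prss34, Prg3 or Epx, which allows up to 21.4% for each. Their Cpa3 level was 4428 and 4338 CPM in the Yoda1 libraries and 7182 and 14600 CPM in the controls, above the 1455 to 2397 CPM of the cells rich in Mcpt8 and Prss34. With 14 cells in all, a difference between the groups was not detectable.

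Pairs of effector genes differed in how often cells rich in 1 held the other. All these pairs were counted at full depth, and the part of depth in them was not tested. Of the cells with 10 or more Prss34 UMIs, 46 of 46 and 70 of 70 held Mcpt8 in the Yoda1 libraries, and 63 of 65 and 91 of 91 in the controls. In the same cells Prg2 was found in 1 and 0 in the Yoda1 libraries, where 0 of 70 allows up to 4.29%, and in 3 and 12 in the controls. All cells with 10 or more Epx UMIs (3 and 1 in the Yoda1 libraries, 11 and 10 in the controls) held Prg2 and Prg3. Among cells with 10 or more Cpa3 UMIs, 49.6% and 66.4% held Ms4a2 in the Yoda1 libraries and 54.7% and 55.5% in the controls, and 24.8% and 56.0% held Prss34 in the Yoda1 libraries and 29.1% and 31.7% in the controls. Fcer1a was in 15.5% and 37.9% of them in the Yoda1 libraries and in 14.4% and 18.5% in the controls. Hdc was found with genes of both groups. Of the Hdc-positive cells, 6.05% and 6.03% held Prg3 in the Yoda1 libraries and 8.27% and 8.43% in the controls, against 0.620% and 0.321% of Hdc-negative cells in the Yoda1 libraries and 0.953% and 1.01% in the controls. For Cpa3, 51.7% and 48.7% of Hdc-positive cells held it in the Yoda1 libraries, against 60.9% and 55.7% in the controls, while 16.9% and 7.77% of Hdc-negative cells did in the Yoda1 libraries and 21.0% and 19.1% in the controls.

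Co-detection with the lineage factors was compared in thinned cells, since deeper cells show more of every gene. Fcer1a-positive cells held Gata2 in 76.9% and 61.8% of cases in Yoda1 1 and Yoda1 2, against 87.5% and 80.5% in control 1 and control 2, and Cebpe in 2.56% and 0 of 55 cells, which allows up to 5.45%, in the Yoda1 libraries and in 4.17% and 2.60% in the controls. Ms4a2-positive cells held Gata2 in 58.2% and 68.7% in the Yoda1 libraries and 71.4% and 71.8% in the controls. In Ms4a2-negative cells Gata2 was found in 18.5% and 18.2% in the Yoda1 libraries and 22.4% and 22.3% in the controls. Cebpe was found in 6.46% and 2.61% of Ms4a2-positive cells in the Yoda1 libraries and in 10.2% and 8.31% in the controls, and in 4.28% and 1.25% of Ms4a2-negative cells in the Yoda1 libraries and 8.60% and 7.43% in the controls. Both IgE receptor chains were thus found mostly with Gata2.

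Prg3-positive cells showed the opposite pattern. They held Cebpe in 51.2% and 33.3% of cases in Yoda1 1 and Yoda1 2, against 64.2% and 66.7% in control 1 and control 2, and Gata2 in 23.3% and 14.3% in the Yoda1 libraries and 23.9% and 18.7% in the controls. Prg3-negative cells held Cebpe in 4.12% and 1.19% in the Yoda1 libraries and 8.16% and 6.88% in the controls. Hdc-positive cells lay between those of the IgE receptor genes and Prg3 in both shares. They held Gata2 in 30.5% and 35.5% in the Yoda1 libraries and 34.9% and 36.4% in the controls. They held Cebpe in 23.4% and 15.1% in the Yoda1 libraries and 29.3% and 27.2% in the controls. Hdc-negative cells held Gata2 in 19.1% and 18.5% in the Yoda1 libraries and 23.4% and 23.7% in the controls. Their Cebpe shares were 3.35% and 1.02% in the Yoda1 libraries and 6.35% and 5.46% in the controls. Both factors were thus more frequent in Hdc-positive cells of every library, Cebpe by the larger ratio. Prg2-positive cells did not hold Cebpe more often than Gata2 in every library. Prg2-positive cells held Gata2 in 23.3% and 13.04% in the Yoda1 libraries and 26.6% and 22.9% in the controls. They held Cebpe in 15.5% and 34.8% in the Yoda1 libraries and 28.8% and 24.2% in the controls. Gata2 was thus more frequent than Cebpe in Yoda1 1, and the shares were close in the controls. Prg2-negative cells held Cebpe in 4.22% and 1.18% in the Yoda1 libraries and 8.28% and 7.12% in the controls. They held Gata2 in 19.6% and 18.8% in the Yoda1 libraries and 24.5% and 24.9% in the controls. Against these, Cebpe was more frequent in Prg2-positive cells of every library, as it was for Prg3. Gata2 was higher in Yoda1 1 and control 1 and lower in Yoda1 2 and control 2. Cells positive for Cpa3, Mcpt8 or Prss34 held Gata2 more often than Cebpe in every library, as did the cells negative for each. Mcpt8-positive cells held Cebpe in 8.98% and 5.53% in the Yoda1 libraries and 15.6% and 16.3% in the controls. Mcpt8-negative cells held it in 4.13% and 1.17% in the Yoda1 libraries and 8.23% and 6.93% in the controls. Gata2 was also more frequent in Mcpt8-positive cells of every library, by a smaller ratio. Epx-positive cells held Cebpe more often than Gata2, but numbered 13 and 7 in the Yoda1 libraries and 25 and 17 in the controls.

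**Figure D5:**
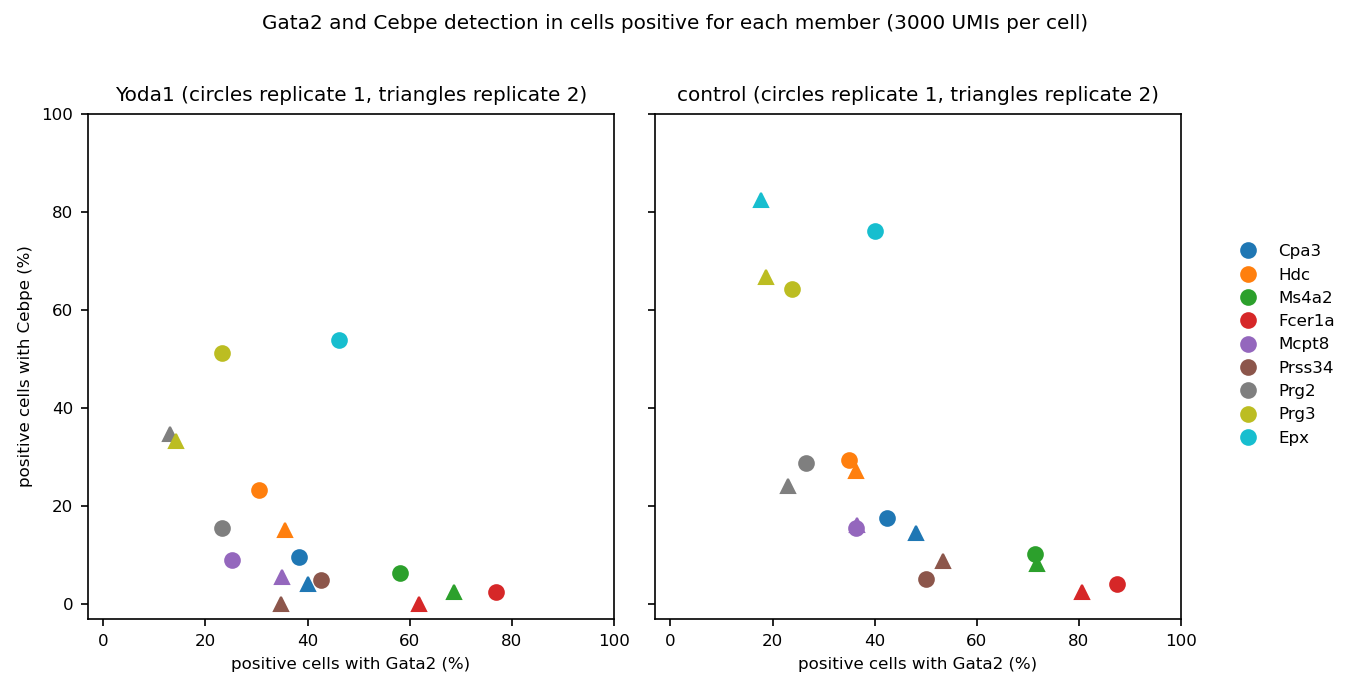
Share of cells positive for each effector gene that also hold Gata2 (x axis, percent) and Cebpe (y axis, percent), in cells thinned to 3000 UMIs, with Yoda1 left and control right, circles for replicate 1 and triangles for replicate 2. Cma1, with at most 8 positive cells in a library, and Epx in Yoda1 2, with 7, are not drawn. Fcer1a and Ms4a2 lie at the lower right, Prg3 and, in the controls, Epx at the upper left, and Hdc between them.

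Cells positive for at least 2 of the 7 mast cell and basophil genes made up 13.4% (12.7 to 14.1) and 4.32% (3.92 to 4.74) of cells in Yoda1 1 and Yoda1 2, against 23.3% (22.3 to 24.2) and 20.1% (19.2 to 21.0) in control 1 and control 2. After thinning these shares were 4.19% and 1.64% in the Yoda1 libraries and 8.45% and 7.94% in the controls. The groups did not overlap at either depth. In the lymphoid gate, at full depth, the class took 0 of 44 cells (which allows up to 6.82%) and 6 of 307 (1.95%, 0.721 to 4.21) in the Yoda1 libraries, and 0 of 28 (up to 10.7%) and 5 of 168 (2.98%, 0.973 to 6.81) in the controls. In the neutrophil gate it took 21.0% and 9.03% in the Yoda1 libraries and 31.6% and 29.7% in the controls. The interval for Yoda1 2 over all cells, 3.92 to 4.74, overlapped that of its lymphoid gate. Gata2 was found in 54.5% and 68.2% of these cells in the Yoda1 libraries and 61.7% and 65.3% in the controls, against 37.2% and 34.2% of the remaining cells in the Yoda1 libraries and 43.5% and 40.9% in the controls. Cebpe was found in 36.9% and 22.8% of these cells in the Yoda1 libraries and 45.8% and 40.3% in the controls. In the remaining cells it was found in 6.39% and 2.07% in the Yoda1 libraries and 11.9% and 8.02% in the controls. Cebpe was thus less frequent than Gata2 but differed by the larger ratio in every library. The double-positive cells were deeper than the rest, with medians of 14155 to 14568.5 UMIs against 7178 to 10209.5 UMIs.

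Cells positive for at least 2 of the 3 eosinophil genes numbered 39 and 13 in Yoda1 1 and Yoda1 2, against 70 and 64 in control 1 and control 2. Their shares were 0.428% (0.304 to 0.584) and 0.133% (0.0710 to 0.228) in the Yoda1 libraries and 0.919% (0.717 to 1.16) and 0.818% (0.631 to 1.04) in the controls. The lymphoid gate held 0 such cells in each library, which allows up to 6.82% and 0.977% in the Yoda1 libraries and 10.7% and 1.79% in the controls. These limits lie above the shares themselves, so the lymphoid cells are too few to set a background for this class. Cebpe was found in 74.4% and 84.6% of them in the Yoda1 libraries and 92.9% and 93.8% in the controls, against 10.2% and 2.85% of the remaining cells in the Yoda1 libraries and 19.1% and 13.8% in the controls. Most of these cells, 26 and 11 in the Yoda1 libraries and 61 and 58 in the controls, were also positive for at least 2 mast cell and basophil genes. The log2 ratio of the mean shares (Yoda1 over control) was -1.63 for the eosinophil genes and -1.29 for the mast cell and basophil genes, and -1.02 and -0.69 without Yoda1 2.

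Other genes of these lineages, in 3 lists, asked whether factors, receptors and further effectors moved with the 10 genes. None of the 45 genes tested passed the test in edgeR (adjusted p = 0.9999 for each gene named here), limma-voom or DESeq2. In edgeR, 4 lineage factors, 2 receptors and 1 further effector had an unadjusted p under 0.05, 7 of 45 genes, against 309 of all 18182 genes tested, a share of 1.7%. The 4 lineage factors were Cebpa, Cebpe, Gata2 and Id2, and Cebpe and Gata2 were used in choosing the effector genes. The counts for the lineage factors, and those over the 3 lists, therefore rest partly on values used in that choice. Without Yoda1 1, 10 genes of the lists passed the test, against 938 of 18903 genes (4.96%), and without Yoda1 2 it was 2 genes, against 209 of 18829 (1.11%). Of 14 lineage factors, 13 had a log2 fold change below 0, against 8926 of all 18182 genes tested. The median of these factors was -0.33, against 0.01 for all genes tested. Both Yoda1 libraries lay below both controls for 6 factors (42.9%), Gata2 and Cebpe among them, against 9.95% of all genes tested. Gata2, itself used in choosing the effector genes, had 73.6 and 76.7 CPM in Yoda1 1 and Yoda1 2, against 98.96 and 113 CPM in the controls, a log2 fold change of -0.54 ± 0.17. Cebpe, also used in that choice, had 27.0 and 10.0 CPM in the Yoda1 libraries and 53.7 and 58.6 CPM in the controls, a log2 fold change of -1.59 ± 0.47. For both factors the Yoda1 libraries lay below the controls. Cebpa, a myeloid transcription factor, had a log2 fold change of -0.76 ± 0.22, and Id2, an inhibitor of helix-loop-helix factors, -0.95 ± 0.35.

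Of 14 receptor genes, 11 had a log2 fold change below 0, against 8926 of all 18182 genes tested, with a median of -0.27. Both Yoda1 libraries lay below both controls for 4 of the receptor genes (28.6%), against 9.95% of all genes tested. Il1rl1, the interleukin-33 receptor of mast cells, had 6.78 and 2.27 CPM in Yoda1 1 and Yoda1 2, against 15.0 and 9.67 CPM in control 1 and control 2, a log2 fold change of -1.45 ± 0.56. Siglecf, a sialic acid-binding lectin of eosinophils, had 8.01 and 3.54 CPM in the Yoda1 libraries and 11.96 and 12.2 CPM in the controls, a log2 fold change of -1.06 ± 0.43. Neither gene overlapped between the groups. Cd200r3, an activating receptor of mast cells and basophils, had -0.69 ± 0.42 and Ccr3, the eotaxin receptor, -0.52 ± 0.37. Kit, which all sorted cells should carry, had 105 and 156 CPM in the Yoda1 libraries and 98.4 and 130 CPM in the controls, so its groups overlapped.

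Of 21 further effectors, 17 passed the filter on low counts (not Tpsab1, Ear10, Tph1 and Il13). Among these 12 had a log2 fold change below 0, against 8926 of all 18182 genes tested, with a median of -0.35. Both Yoda1 libraries lay below both controls for 8 of the 17 genes (47.1%), against 9.95% of all genes tested. Alox5, the lipoxygenase that starts leukotriene synthesis, had 3.44 and 2.63 CPM in Yoda1 1 and Yoda1 2, against 5.47 and 5.54 CPM in the controls, a log2 fold change of -0.89 ± 0.31. Il6, a cytokine gene, had -1.01 ± 0.48. The eosinophil-associated ribonucleases Ear6 and Ear1 had -1.51 ± 0.72 and -1.28 ± 0.62 at under 0.3 CPM in every library, and they belong to a family of close copies among which reads may be split.

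The genes most alike in pattern were ranked by their smallest fold, over the 4 libraries, between member-positive cells and the remaining cells, among genes with at least 50 CPM in the positive cells of every library. For cells with at least 2 eosinophil genes, 2210 genes were ranked. Cebpe, one of the factors used in choosing the effector genes, came first, at 432 and 470 CPM in positive cells of Yoda1 1 and Yoda1 2 and 417 and 742 CPM in those of the controls, against 24.5 and 8.97 CPM in the remaining cells of the Yoda1 libraries and 48.3 and 49.7 CPM in those of the controls. Rnase12, of the ribonuclease A family, was next, at least 5.89 times higher in the positive cells of each library on the scale of CPM plus 10. Then came Cd63, a tetraspanin of granule membranes (3.81 times), Arsb, a lysosomal sulfatase (3.54), Ms4a3, a gene of granulocyte and monocyte progenitors (3.10), Ltb4r1, a leukotriene B4 receptor (2.92), Syne1, a nuclear envelope protein (2.70), and B4galt6, a glycosyltransferase (2.56).

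For cells with at least 2 mast cell and basophil genes, 2581 genes were ranked on the same measure. Cebpe was again first, at least 4.07 times higher, followed by Ms4a3 (2.83), Lmo4, a LIM-only transcriptional regulator (2.77), Cd63 (2.72) and Fcgr3, a low-affinity IgG receptor (2.65). The neutrophil granule genes Elane (2.47), Mpo (2.40) and Ctsg (2.31) completed the 8 genes. Elane had 3296 and 3212 CPM in the positive cells of Yoda1 1 and Yoda1 2 and 4121 and 4828 CPM in those of the controls, against 1228 and 303 CPM in the remaining cells of the Yoda1 libraries and 1660.5 and 1569 CPM in those of the controls. Cells positive for mast cell and basophil genes thus also carried neutrophil granule transcripts, and Gata2 in them was at least 1.44 times the level of the remaining cells. Positive cells were the deeper ones in every library, and the part of depth in these folds was not tested.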

How the data were processed

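The 4 libraries (single-cell RNA-seq of LSK cells, 2 Yoda1 and 2 control) were grouped by treatment as labelled. The deposited matrices held raw UMI counts per gene and cell barcode, written by Cell Ranger 7.1.0 per the file headers. Seurat 4.3.0, GRCm38 and mm10 are named in the submitters' processing notes. Since 10x Genomics and a Singleron microwell chip are both named in the labels, the capture platform is uncertain; the annotation release was not given in the sources used here.

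Of 9692 and 10168 barcodes in the Yoda1 libraries and 8236 and 8709 in the controls, those with 500 or more genes, 1000 or more UMIs and no more than 10% mitochondrial UMIs were kept. Counts were summed per library, filtered with filterByExpr, scaled by TMM and tested with edgeR 4.0.16 under R 4.3.3 (quasi-likelihood test, Benjamini-Hochberg adjustment, threshold 0.05). The SE is the log2 fold change divided by the square root of the F statistic. This step was tested on simulated data. The alternatives tried were RLE scaling, limma-voom (limma 3.58.1), DESeq2 1.42.0, no filter on low counts, at least 1000 genes with at most 5% mitochondrial UMIs, every barcode, the 5% of cells with the most UMIs removed in place of a doublet caller, which was not run, a replicate block, and leaving out each library in turn. A cell took the gate with most of its markers detected, at least 2; ties were mixed and the rest passed no gate. Gates were reassigned after thinning to 3000 UMIs, which left out 154 and 446 shallower cells in the Yoda1 libraries and 226 and 252 in the controls. Intervals are exact Clopper-Pearson 95% intervals. The limit given for a count of 0 is instead 3 divided by the number of cells. It is lower than the upper end of the exact interval: 6.82% against 8.04% for 0 of 44 cells.

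The effector genes, the gene lists and the tests were chosen with earlier results of these data known. Named genes are the effector genes, Gata2, Cebpe, the gate markers, up to 4 genes of smallest unadjusted p per list, and the 8 genes most alike per class; Kit, Ly6a and Il5ra were named after their values had been seen. Promoters matched for 9 effector genes (RefSeq, GRCm38.p6).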

Additional observations from a re-analysis of the deposited data

How the results depend on the processing

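Of 120 alternative log2 fold changes of the effector genes, 110 moved by less than 1 SD between libraries, 8 moved further and 2 changed sign: Prss34 to 0.20 without Yoda1 1 (range -1.25 to 0.20 with 1 library left out) and Cma1 to 0.041 without control 2 (range -1.17 to 0.041). Of 90 alternative log2 ratios of positive shares, 80 moved by less than 1 SD. This SD comes from the same 2 libraries per group, so it is wide where the Yoda1 libraries differ. Without Yoda1 2 the log2 fold change of Prg2 went from -1.72 to -0.89 and still counted as within 1 SD. These counts therefore do not show that the values are stable. The count of genes called was 0 under every setting other than DESeq2, which called 5, and the fits with 1 library left out, which called 0 to 938 genes (938 without Yoda1 1, 209 without Yoda1 2, 0 without control 1 and 3 without control 2); those fits assume that the lone library varies like the other group. Among the genes of the 3 lists they called 0 to 10. With the replicate number as a block, 0 genes of all and 0 genes of the lists were called, with 1367 at an unadjusted p under 0.05; the Prg2 log2 fold change was -2.35, that of Epx -2.23 and that of Prss34 -0.51. Replicate differences correlated between groups at 0.487 over 18182 genes, and with 2 pairs this cannot show pairing. With 1 library left out, 6 to 9 effector genes had every Yoda1 library below every control. Fewer libraries meet this order more easily, and its share over all genes was not counted there. These counts therefore cannot be set against the 9.95% found with all libraries. The log2 ratio of shares ranged from -2.70 to -1.02 for cells with at least 2 eosinophil genes. For those with at least 2 mast cell and basophil genes it ranged from -2.33 to -0.69. For cells rich in Prg2 it ranged from -2.61 to -1.40. Each ratio was lowest without Yoda1 1. The mean share of eosinophil gene-positive cells with Cebpe was 86.4%, and 99.1% where 3 genes were needed. That of mast cell and basophil gene-positive cells with Gata2 was 62.4%, 54.3% after thinning and 75.2% where 3 genes were needed. For these, the cause was not tested. With 2 libraries per group, an exact permutation over libraries has 6 arrangements, so no single value could pass a threshold of 0.05, and genes with under 100 UMIs in a library, such as Epx in Yoda1 2 with 22, carry wide counting error.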
